A study of Mus musculus with 4 samples.

Results

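Interferon-inducible and interferon regulatory genes were followed in cells sorted from chimeric mouse kidneys. The set holds every gene whose symbol marks it as interferon-regulatory (the IRF factors and Stat2) or as an interferon-induced effector (the Ifi, Ifit, Ifitm, Isg, Oas, Gbp, Irgm and Mx families with Usp18, Rsad2 and Bst2). Members were taken by symbol alone and not by their values. The rule found 62 of the 18194 genes measured by probe sets with a single gene symbol, and where a gene had several, the one with the greatest average log2 value stood for it. It also takes in Irf2bp1, Irf2bp2 and Irf2bpl, which encode proteins named for binding IRF2 and are not interferon regulatory factors, and Isg20l2, a relative of Isg20.

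Interferons are secreted proteins that warn cells of viruses. Type I interferons bind the Ifnar1 and Ifnar2 receptor chains, whose Janus kinases phosphorylate STAT2. STAT2 and IRF9 take part in a complex that binds interferon-stimulated response elements in target promoters, while interferon gamma acts at gamma-activated sites. The induced effectors block viral entry, translation or budding, degrade RNA or sense nucleic acids, and uninfected tissues keep many of them at a low level. Several of these genes are known to differ between inbred mouse strains, among them Ifi202b, Gbp2b (older name Gbp1), Mx1 and Oas1b. Ifi44l carries the synonym H28, a minor histocompatibility locus.

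The study injected 3 to 5 embryonic stem cells, which carried green fluorescent protein (GFP) and lacked the transferrin receptor gene Tfrc, into wildtype blastocysts. Kidneys were dissected at embryonic day 15.5, dissociated with collagenase and trypsin, and sorted. The arrays hold 2 samples of GFP-positive cells labelled Tfrc-/- and 2 of GFP-negative wildtype cells, each run on an Affymetrix Mouse Genome 430 2.0 array after amplification of its total RNA. Both groups came from chimeric embryos, and neither holds donor-derived cells with Tfrc intact. The strain of the stem cells and of the host blastocysts, the number of stem cell lines and the animals behind each sample are not given in the sources used here. Loss of Tfrc, the donor line and its strain therefore cannot be told apart.

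All levels are linear probe set intensities. An array's control level is its highest reading among 27 probe sets for Bacillus subtilis genes, and it lay between 7.18 and 9.08. Kidney markers were present in all samples: all 14 measured kidney epithelial markers read above the control level on all 4 arrays. Tfrc read 1759 and 2348 in wildtype and 2509 and 3175 in labelled Tfrc-null cells, and it was not lower in the latter. The deleted stretch of Tfrc is not known from the labels, so whether these probes lie outside it, and whether they can check the label, is unknown. The group is called labelled Tfrc-null, and every direction rests on that label.

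Promoter sequences of 4 members are shown because these genes stood apart between the groups and differ in their interferon elements. A window of 300 bases, from 250 before to 50 after the transcription start, was available in RefSeq (GRCm38.p6, the C57BL/6J reference) for 50 of the 62 members. The core of the interferon-stimulated response element was searched as GAAA, any pair of bases and again GAAA, on both strands, and the gamma-activated site as TTCNNNGAA, which reads the same on both strands. The capitals mark the response element core in the first 3 sequences and the gamma-activated site in the last.
Rsad2, chr12:26456403-26456702, minus strand: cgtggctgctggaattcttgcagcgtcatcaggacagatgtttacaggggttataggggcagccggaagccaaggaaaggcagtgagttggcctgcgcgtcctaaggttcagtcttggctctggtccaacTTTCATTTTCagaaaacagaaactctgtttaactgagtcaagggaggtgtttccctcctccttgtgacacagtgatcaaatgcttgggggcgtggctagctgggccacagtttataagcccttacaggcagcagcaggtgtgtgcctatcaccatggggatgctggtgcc
Bst2, chr8:71537423-71537722, minus strand: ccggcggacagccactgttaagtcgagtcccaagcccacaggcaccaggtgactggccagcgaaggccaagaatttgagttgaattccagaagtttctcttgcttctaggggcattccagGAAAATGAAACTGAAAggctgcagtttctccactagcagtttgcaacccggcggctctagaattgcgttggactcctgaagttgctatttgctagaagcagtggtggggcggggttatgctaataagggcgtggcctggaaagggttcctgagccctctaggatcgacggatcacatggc
Gbp2b, chr3:142594597-142594896, plus strand: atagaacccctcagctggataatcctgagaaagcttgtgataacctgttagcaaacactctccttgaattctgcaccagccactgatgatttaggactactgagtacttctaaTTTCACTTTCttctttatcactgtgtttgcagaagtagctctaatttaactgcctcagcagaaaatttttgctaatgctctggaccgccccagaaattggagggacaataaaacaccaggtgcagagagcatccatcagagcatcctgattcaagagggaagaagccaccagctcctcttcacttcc
Ifi202b, chr1:173982795-173983094, minus strand: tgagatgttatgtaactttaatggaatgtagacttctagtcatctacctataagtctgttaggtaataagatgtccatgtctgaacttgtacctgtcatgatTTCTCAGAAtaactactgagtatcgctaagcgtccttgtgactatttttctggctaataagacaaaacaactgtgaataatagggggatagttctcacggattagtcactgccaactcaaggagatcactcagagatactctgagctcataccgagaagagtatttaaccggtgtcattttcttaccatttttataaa

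The response element core was found in 22 of the 50 members (44%), against 3.99% of all 27025 genes with a window. In Rsad2 it begins 120 bases before the start and in Gbp2b 137 bases before it, and Bst2 holds 2 overlapping copies that begin 130 and 124 bases before it. Ifi202b has no match to this core in its window and 1 gamma-activated site that begins 148 bases before the start. Bst2 also has 1 such site, which overlaps its response element and is not marked. The gamma-activated site was found in 14 of 50 members (28%) against 9.55% of all genes. Set by the differences described next, the core was present in 4 of 12 members that stood higher on both labelled Tfrc-null arrays, in 5 of 10 that stood lower on both, and in 13 of 28 whose groups overlapped. A match is a match of letters in the reference strain, and no binding was measured.

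Over the whole set, the interferon genes had no common direction. The median log2 difference (labelled Tfrc-null minus wildtype) was 0.02 over the 62 members, beside 0.04 over all genes, and 32 members had a positive and 30 a negative difference. The members' differences were nevertheless wide: their 10th and 90th percentiles were -1.05 and 0.53, beside -0.36 and 0.42 for all genes. With limma, 0 of 62 members passed an adjusted p of 0.05, where 0% of all 18194 genes passed, and 12 members had an unadjusted p of at most 0.05 (8.02% of all genes did). Of these 12, 4 were higher (4.03% of all genes) and 8 lower (3.98% of all genes) on the labelled Tfrc-null side. The groups did not overlap in 26 members, where 34.9% of all genes did not. A difference of at least 2-fold without overlap was seen for 9 members (2.66% of all genes), 3 higher (1.15% of all genes) and 6 lower (1.51% of all genes). The 3 higher were Ifi202b, Ifi44l and Gbp2b, and the 6 lower were Rsad2, Bst2, Isg20, Oasl2, Ifi209 and Ifi204. With no size required, 14 members lay higher and 12 lower without overlap, where 20.6% and 14.3% of all genes did.

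**Figure D1:**
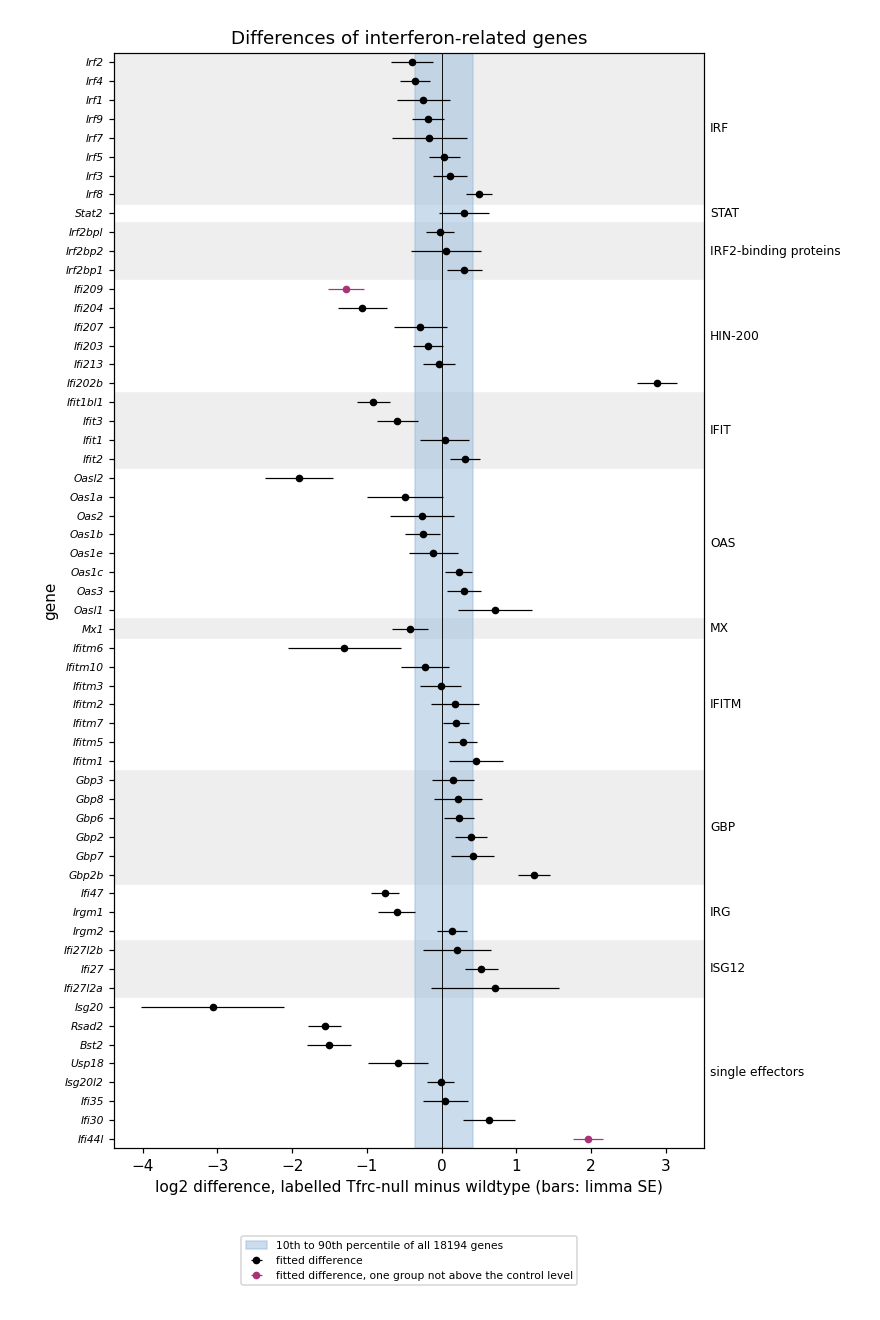
Log2 difference of the 58 genes above the control level on at least 1 array, labelled Tfrc-null minus wildtype, with the limma standard error as bars, grouped by family; purple points (Ifi209 and Ifi44l) have one group not above the control level, so that their fitted value is not a measured size, and the blue band spans the 10th to 90th percentile of all 18194 genes, -0.36 to 0.42. Most genes lie in or near the band, and single genes lie far outside it on both sides, Ifi202b at 2.88 and Isg20 at -3.06.

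The set was largely measurable: 47 members read above the control level on all 4 arrays, 11 on 1 to 3 arrays and 4 on none. The 4 on none were Mx2, Ifit1bl2, Oas1f and Oas1h, and no single difference is given for them. They are part of the totals over 62 members: Mx2 and Oas1f are among the 14 higher without overlap, and the other 58 members hold 12 higher and 12 lower. In the plot of member values by array they lie left of the control band.

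**Figure D2:**
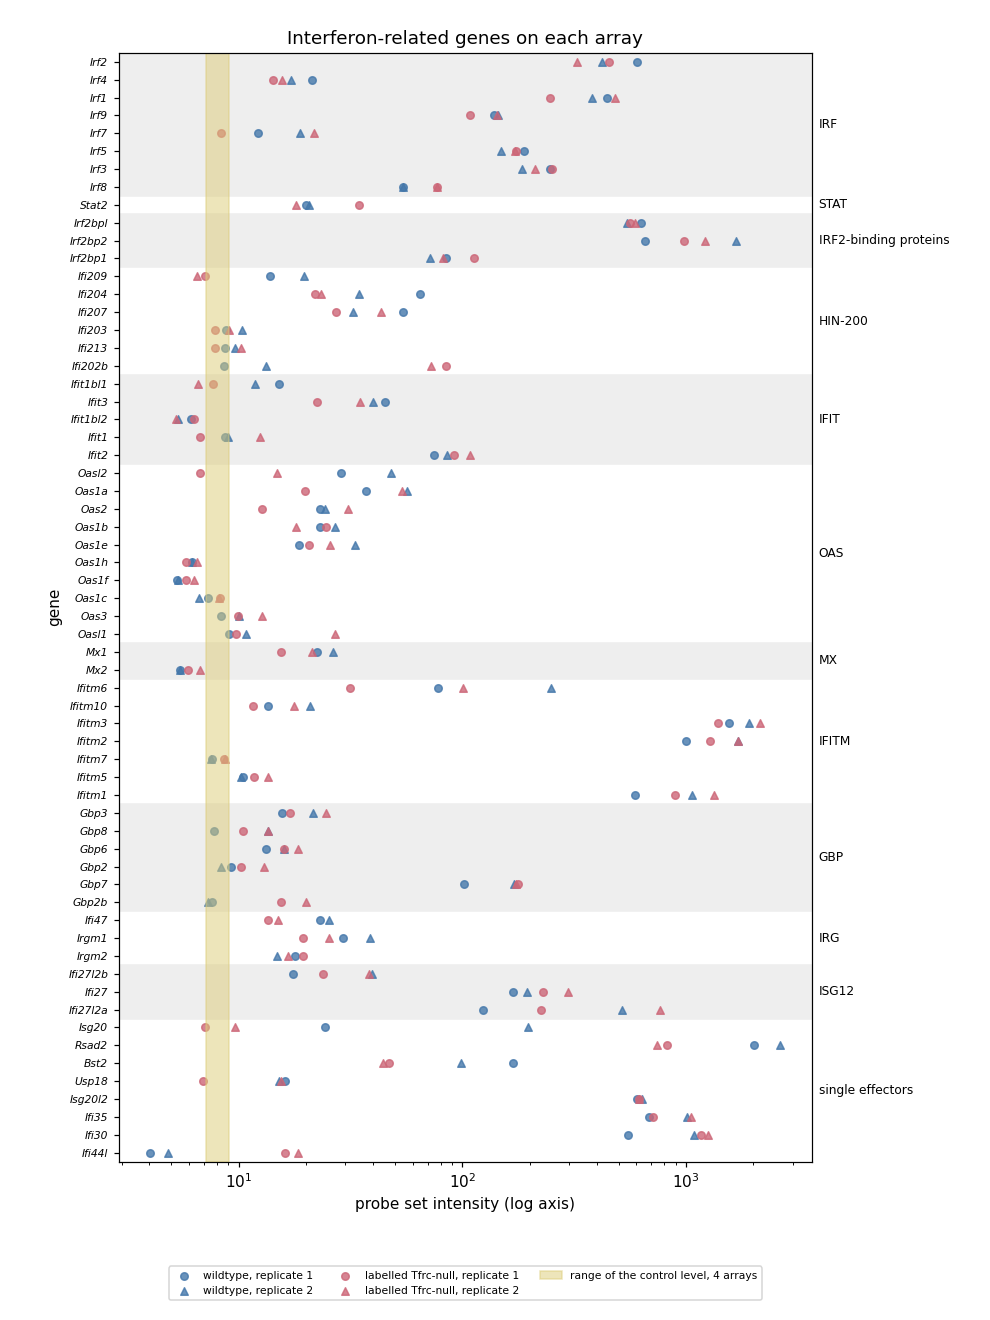
Probe set intensity (log axis) of the 62 genes on each array, wildtype in blue and labelled Tfrc-null in red, circles for replicate 1 and triangles for replicate 2; the yellow band is the range of the control level, 7.18 to 9.08. Rsad2 and Bst2 show wildtype points to the right of all labelled Tfrc-null points, and Ifi202b, Ifi44l and Gbp2b the reverse order.

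Ifi202b, a HIN-200 protein that binds DNA without a pyrin domain, read 8.57 and 13.2 in wildtype and 84.8 and 72.7 in labelled Tfrc-null cells. The wildtype readings lay just above the control level, and the groups were far apart. Group means were 10.9 ± 3.28 and 78.7 ± 8.55 (SD, n = 2 each), a log2 difference of 2.88 (SE 0.27) or 7.38-fold, with a limma adjusted p of 0.122. A second probe set that matches Ifi202b and a near-identical locus read 4.89 and 7.56 against 53.2 and 81.6. Both wildtype readings were below the control level, so it was at least 8.16-fold higher. Probes of one Ifi202 copy can bind another, so the values belong to the Ifi202 copies together.

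The HIN-200 genes are a family of DNA sensors and transcriptional regulators encoded side by side on chromosome 1. The other HIN-200 genes of the set did not follow Ifi202b. Ifi209 (also Pyhin1) read 13.9 and 19.6 in wildtype and 7.07 and 6.55 in labelled Tfrc-null cells, both of the latter below the control level. It was therefore at least 2.18-fold lower (limma adjusted p = 0.238). Ifi204, a regulator of myeloid and muscle differentiation, read 64.8 and 34.6 against 22.0 and 23.4, a log2 difference of -1.06 (SE 0.33, adjusted p = 0.496). The wildtype arrays themselves differed in Ifi204, and both stood above the other group. The log2 difference was -0.61, less than 2-fold, with the first wildtype array left out and -1.51 with the second left out. A probe set that Ifi204 shares with Mndal, Ifi211 and Ifi205 overlapped, at 22.3 and 32.4 against 8.92 and 35.8. Ifi207 overlapped, at 54.3 and 32.5 against 27.3 and 43.4. Ifi203 read 8.83 and 10.4 against 7.83 and 9.05, and Ifi213 8.73 and 9.68 against 7.82 and 10.3, both close to the control level. A brighter probe set that Ifi203 shares with other loci overlapped, at 106.5 and 188.0 against 65.5 and 160.0. A dim shared one lay higher without overlap, at 7.10 and 9.05 against 9.97 and 10.9.

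In the order of the RefSeq table, 8 of the 13 protein-coding genes from Aim2 to Ifi205 had a probe set of their own. Aim2, at the far end from Ifi202b and the sensor of cytosolic DNA that activates the inflammasome, read 16.3 and 13.1 in wildtype and 30.5 and 38.9 in labelled Tfrc-null cells (log2 difference 1.24, SE 0.23, limma adjusted p = 0.233). Mndal, between Ifi204 and Ifi203, overlapped at 54.2 and 127.3 against 85.0 and 111.8. Aim2 and Ifi202b thus stood higher, Ifi209 and Ifi204 lower, and the 4 genes Ifi213, Ifi207, Mndal and Ifi203 overlapped.

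**Figure D3:**
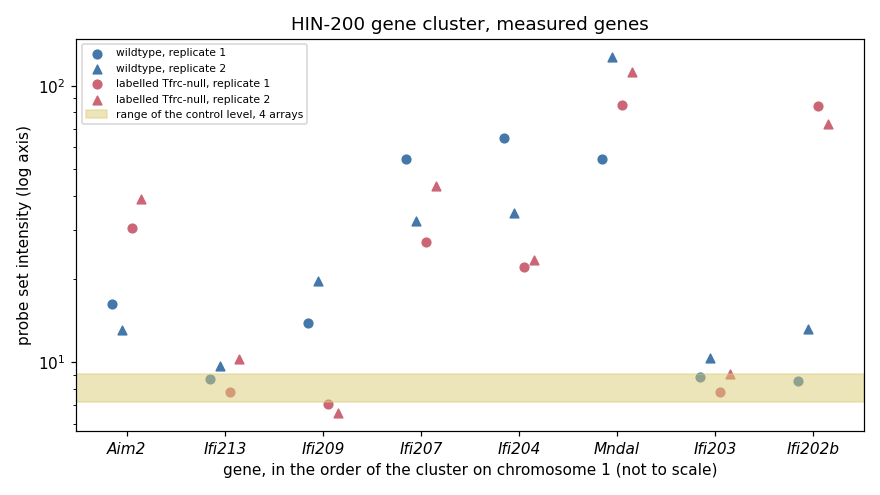
Probe set intensity (log axis) of the 8 measured HIN-200 genes in their order on chromosome 1, each array as a point; colours, symbols and the yellow control band are as in the plot of all members. Aim2 and Ifi202b lie higher and Ifi209 and Ifi204 lower on the labelled Tfrc-null arrays.

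Ifi44l, an interferon-induced gene of the same family as Ifi44, read 4.03 and 4.86 in wildtype and 16.1 and 18.4 in labelled Tfrc-null cells. Both wildtype readings were below the control level, so the gene was at least 2.13-fold higher in labelled Tfrc-null cells (limma adjusted p = 0.122). A second probe set gave the same order, at 4.81 and 5.09 against 11.2 and 13.7, and the last was under the control level on each array. Gbp2b, a guanylate-binding protein of antimicrobial defence, read 7.61 and 7.32 against 15.4 and 20.03, with 1 of the 2 wildtype arrays above the control level (log2 difference 1.24, SE 0.21, adjusted p = 0.212). These 3 genes made up all the members at least 2-fold higher without overlap. Of them, Ifi202b and Gbp2b are among the 4 genes named above as known to differ between strains. The third, Ifi44l, carries the synonym of a minor histocompatibility locus, as given above. The other 2 of those 4 did not stand higher. Mx1 was lower without overlap, at 22.5 and 26.5 against 15.6 and 21.4, and Oas1b overlapped, at 23.2 and 27.0 against 24.5 and 18.0. These 4 were picked out as strain-variable with the values known, and the part of strain was not tested.

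Among the effectors that stood lower, Rsad2 (viperin, a radical SAM enzyme with an iron-sulphur cluster that makes an antiviral nucleotide) read 2015 and 2641 in wildtype and 821.4 and 742.5 in labelled Tfrc-null cells. Both replicates of each group lay close together. Means were 2328 ± 442.3 and 781.9 ± 55.8 (SD, n = 2), a log2 difference of -1.56 (SE 0.22) or 2.95-fold, with a limma adjusted p of 0.152. A second Rsad2 probe set read 798.3 and 874.9 against 234.2 and 164.9, a difference of -2.09, and another, near the control level, -0.62.

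Bst2 (tetherin, which holds budding virions at the cell surface) read 168.7 and 99.1 on the wildtype arrays against 46.9 and 44.3 (2.83-fold lower, limma adjusted p = 0.270). Oasl2, an oligoadenylate synthetase-like protein, read 28.8 and 48.2 against 6.71 and 14.8, with 1 of the 2 labelled Tfrc-null arrays below the control level (log2 difference -1.90, SE 0.46, adjusted p = 0.340). Isg20, an RNA exonuclease, read 24.4 and 197.3 against 7.12 and 9.67, a log2 difference of -3.06 with an SE of 0.96 (adjusted p = 0.497). Its wildtype arrays stood further apart than those of any other member, and the log2 difference was -1.78 for the pair numbered 1 and -4.35 for the pair numbered 2. On the same arrays the summed intensity of granulocyte and mast cell markers was 6133 and 10651 against 334.9 and 770.2, and that of erythroid markers 1623 and 4442 against 233.3 and 269.8, and their part in these differences was not tested.

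**Figure D4:**
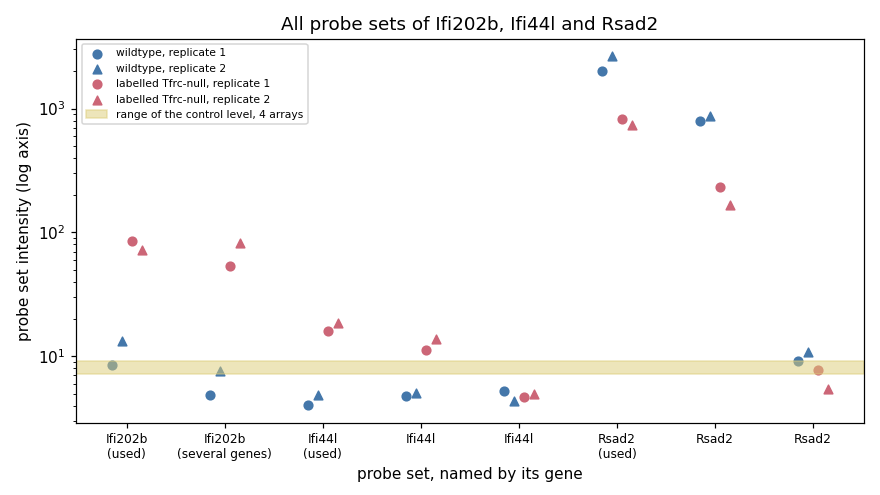
Probe set intensity (log axis) on each array for every probe set of Ifi202b, Ifi44l and Rsad2; "used" marks the probe set that stood for the gene, and "several genes" one that matches Ifi202b and another locus. The order of the groups is the same in both Ifi202b, in 2 of 3 Ifi44l and in all 3 Rsad2 probe sets.

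Among the 9 IRF and STAT regulators, each by the probe set that stood for it, the groups overlapped in 7. Irf8 lay higher and Irf4 lower without overlap. Irf9, the DNA-binding part of the type I complex, read 138.2 and 145.0 in wildtype and 108.2 and 143.8 in labelled Tfrc-null cells. Stat2, its partner, read 20.1 and 20.6 against 34.4 and 18.2. Irf7, which amplifies type I interferon production and is itself induced, read 12.2 and 18.8 against 8.36 and 21.8. The groups overlapped in all 3 on these probe sets. A second Stat2 probe set, near the control level, lay slightly lower without overlap, at 10.1 and 9.93 against 9.46 and 9.50.

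Irf1, an activator induced by interferon gamma, read 441.5 and 378.7 against 246.1 and 483.3, and Irf2, its antagonist, 604.4 and 423.0 against 454.9 and 325.5. Irf3, which is activated after nucleic acid sensing, read 245.5 and 185.1 against 251.9 and 211.7. Irf5, a factor of Toll-like receptor signalling, read 189.8 and 149.1 against 173.4 and 171.3. None of these 4 separated the groups on the probe set that stood for the gene. A dimmer Irf3 probe set lay lower without overlap, at 47.0 and 48.7 against 21.1 and 35.4, while its others overlapped. The second Irf5 probe set lay higher without overlap, at 32.4 and 24.7 against 44.2 and 39.6.

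Irf8, a factor of macrophage and dendritic cell development, read 54.40 and 54.46 in wildtype and 76.9 and 76.8 in labelled Tfrc-null cells, a log2 difference of 0.50 (SE 0.18, limma adjusted p = 0.552). Its second probe set overlapped, at 43.8 and 19.2 against 25.4 and 23.5. Irf4, a factor of lymphocytes, read 21.4 and 17.2 against 14.3 and 15.7. The 3 IRF2-binding proteins all overlapped, with differences from -0.02 to 0.31.

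Of the remaining single effectors, Ifi30, a lysosomal thiol reductase of antigen processing, was higher without overlap at 553.5 and 1088 against 1167 and 1249, and Ifi35 and Isg20l2 overlapped. Isg15, the ubiquitin-like modifier, had only a probe set shared with another locus, which overlapped at 25.02 and 40.9 against 23.7 and 39.8. Usp18, the negative regulator at the Ifnar2 chain that removes ISG15 from proteins, read 16.2 and 15.1 against 6.97 and 15.5.

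Among the GTPase families, all 6 guanylate-binding proteins had a positive difference, with a median of 0.31, and 3 lay higher without overlap (Gbp2b, Gbp2 and Gbp7). Of all 18194 genes, 10469 had a positive difference and 20.6% lay higher without overlap. The number with a positive difference came to 5 when the second labelled Tfrc-null array was left out and to 4 when the first wildtype array was, and it was 6 with each other array left out and under each scaling tried. Gbp7 read 101.9 and 171.1 on the wildtype arrays against 177.7 and 174.8. The immunity-related GTPases, which attack the vacuoles of intracellular pathogens, stood the other way in 2 of 3 members. Ifi47 read 23.1 and 25.3 against 13.6 and 15.0 (log2 difference -0.76, SE 0.19, limma adjusted p = 0.362), Irgm1 29.3 and 38.9 against 19.4 and 25.5, and Irgm2 overlapped at 17.8 and 14.9 against 19.3 and 16.7.

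The IFIT proteins, which bind viral RNA, were divided: Ifit1bl1 read 15.2 and 11.8 against 7.72 and 6.56, with 1 of the 2 labelled Tfrc-null arrays below the control level (log2 difference -0.91, SE 0.22, limma adjusted p = 0.345). Ifit3 read 45.0 and 39.7 against 22.5 and 35.0, and Ifit2 75.04 and 85.3 against 91.8 and 108.6. Of the 10 oligoadenylate synthetase genes, many of which make the messenger that activates RNase L, an RNA-degrading enzyme, 8 were above the control level on at least 2 arrays. Among these 1 lay higher (Oas1c) and 1 lower (Oasl2) without overlap, where 20.6% and 14.3% of all genes did. The sign of the family's median difference was not stable: it was -0.06 over all 10, 0.23 with the first labelled Tfrc-null array left out and 0.08 with the second wildtype array left out. The 7 IFITM genes, some of which encode proteins that block viral entry at membranes, ranged from -1.30 (Ifitm6) to 0.46 (Ifitm1). Ifitm3 read 1562 and 1923 against 1389 and 2133. The Ifi27 genes, which encode small mitochondrial and membrane proteins, had differences from 0.20 to 0.72, and Ifi27l2a read 123.4 and 515.8 against 225.0 and 765.7, far lower on both arrays of replicate 1. The median of the 3 Ifi27 genes was 0.53, but -0.31 with the first wildtype array left out and -0.14 with the second labelled Tfrc-null array left out, with 1 of 3 positive each time.

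The 2 labelled Tfrc-null arrays were not alike in these genes, and neither were the 2 wildtype arrays. The first held the lowest of the 4 readings for 22 of 62 members (35.5%), beside 20.9% of all genes. Wildtype replicate 1 also held the lowest for 22 members, beside 31.1% of all genes. The second labelled Tfrc-null array held the highest for 25 members (40.3%), beside 26.4% of all genes. Wildtype replicate 2 held it for 18 members (29.0%), beside 21.3%. Of the 47 members above the control level throughout, wildtype replicate 1 was lowest for 40.4% and labelled Tfrc-null replicate 1 for 36.2%. Wildtype replicate 2 was highest for 31.9% of them and labelled Tfrc-null replicate 2 for 36.2%. Of all genes above it throughout, the same shares were 32.4% and 20.5% lowest, and 21.6% and 26.4% highest. Oas2 read 12.7 on the first and 30.8 on the second labelled Tfrc-null array, against 23.1 and 24.4 on the wildtype arrays. Oas1a read 19.9 and 53.8 against 37.1 and 56.7. The median absolute log2 difference between the 2 labelled Tfrc-null arrays was 0.35 over members and 0.24 over all genes, while between the wildtype arrays it was 0.27 and 0.28. Over the 47 members above the control level on all 4 arrays it was 0.39 between the labelled Tfrc-null and 0.35 between the wildtype arrays. Over all genes above that level on all 4 arrays it was 0.24 and 0.32. The median difference of the members reached 0.18 with the first labelled Tfrc-null array left out and -0.10 with the second left out. It was -0.12 and 0.076 with the first and the second wildtype array left out. At least 2-fold higher without overlap were 5 members with the first labelled Tfrc-null array left out, where 327 of all 18194 genes were. With the second wildtype array left out they were also 5, where 474 of all genes were. In the fit reported the counts were 3 members and 209 genes.

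The rest of the pathway was read from gene lists built on the genes' known roles. Their counts without overlap are to be read against the 20.6% of all genes that lay higher and the 14.3% that lay lower. Of 10 interferon genes measured, 5 exceeded the control level on no array and 0 had an unadjusted p of at most 0.05. Ifnb1 read 6.73 and 5.20 on the wildtype arrays against 8.19 and 5.90, and Ifng 7.23 and 7.23 against 7.23 and 7.11. The 2 interferons with the smallest p were Ifnz, at 29.2 and 15.5 against 40.9 and 30.0, and Ifna11, below the control level throughout. All 9 receptor chains and Janus kinases read above the control level on all arrays, with a median difference of 0.07, which was -0.04 with the second labelled Tfrc-null array left out. The receptor chain Ifnar2 read 123.2 and 143.3 against 216.4 and 206.1 (log2 difference 0.67, SE 0.19, limma adjusted p = 0.439), and Il10rb, a chain shared by interferon lambda and interleukin 10 receptors, 28.3 and 43.3 against 22.3 and 27.3.

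The 17 nucleic acid sensors and adaptors had a median difference of 0.12, with 3 higher and 3 lower without overlap, shares near those of all genes. This median was -0.02 with the second labelled Tfrc-null array left out and 0.03 to 0.05 with any other array left out. The 2 with the smallest p were Aim2, given above, and Trim25, a ubiquitin ligase of RIG-I signalling, at 871.3 and 617.3 on the wildtype arrays against 430.6 and 426.1. The 17 brakes on interferon signalling had a median of 0.09, with 5 higher and 3 lower. Their median was -0.07 with the second wildtype array left out and 0.20 with the first labelled Tfrc-null array left out. In this list Nlrc3, a negative regulator of nucleic acid sensing, read 26.2 and 30.6 against 15.4 and 17.9, and Pias4, a SUMO ligase, 56.7 and 48.6 against 77.4 and 74.8. The 14 genes of MHC class I and antigen processing had a median of -0.13, with 3 higher and 5 lower. It was -0.00036 with the second wildtype array left out and -0.06 with the first labelled Tfrc-null array left out. The immunoproteasome subunits Psmb9 and Psmb10 read 20.8 and 17.3 against 15.0 and 13.1, and 109.5 and 155.2 against 170.6 and 168.4. Of 4 other GTPases, Igtp stood lower at 101.3 and 166.6 against 46.3 and 96.0. Atl3, which is on this list but is not an immunity-related GTPase, overlapped at 188.8 and 316.9 against 275.8 and 346.5.

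A wider list of 63 other interferon-stimulated genes, 5 of which are also on the lists just given, stood lower more often than higher. Without overlap 22 lay lower and 6 higher, where 14.3% and 20.6% of all genes did. The median difference was -0.15, and 0 passed an adjusted p of 0.05 with limma. At least 2-fold lower without overlap were 7, namely Slfn1, Xaf1, Tnfsf10, Trim12a, Samd9l, Bst1 and Slfn4, and 0 were 2-fold higher. Of all genes, 1.51% were at least 2-fold lower and 1.15% at least 2-fold higher without overlap. Slfn1, a schlafen protein of haematopoietic cells, read 19.96 and 21.9 on the wildtype arrays against 10.01 and 9.15 (log2 difference -1.13, SE 0.19, limma adjusted p = 0.212). Xaf1, a pro-apoptotic protein, read 28.7 and 52.2 against 9.07 and 12.5. The number at least 2-fold lower was 2 when a gene's probe sets were averaged and 3 with 16 added to the intensity before log2, and the median remained negative under each alternative, from -0.24 to -0.08.

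Markers of some blood and vessel cells differed between the groups. In these sorted pools fewer cells of a type and less RNA per cell cannot be told apart. For all marker lists, counts without overlap are to be read against the 20.6% of all genes that lay higher and the 14.3% that lay lower. Of 15 granulocyte and mast cell markers 9 lay lower and 1 higher without overlap, and their summed intensity was 6133 and 10651 on the wildtype arrays against 334.9 and 770.2. S100a8 read 2018 and 3857 against 71.0 and 357.8, while the granule genes Elane and Ctsg exceeded the control level on no array. Ifitm6, an IFITM gene of myeloid cells, read 77.5 and 250.3 against 31.6 and 101.1, and its groups overlapped.

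The 20 macrophage and monocyte markers did not share one direction, with 7 higher and 4 lower without overlap and a summed intensity of 8159 and 9812 against 9875 and 10042. Among them the monocyte receptor Ccr2 read 109.5 and 101.5 on the wildtype arrays against 33.6 and 29.3, Csf1r 1404 and 1862 against 1879 and 1879, and Itgam was at or below the control level throughout. Of 12 lymphocyte and plasmacytoid markers 0 lay higher and 3 lower, at a summed intensity of 110.6 to 133.4 on the 4 arrays, with Cd3e, Cd3g and Pax5 at or below the control level. Of 16 endothelial markers 10 lay lower and 0 higher, with sums of 7823 and 6857 against 4997 and 4251. Of 11 erythroid markers 10 lay lower, with sums of 1623 and 4442 against 233.3 and 269.8, and Epb42 and Rhag were at or below the control level. Of 13 stromal markers 10 lay higher and 0 lower, with sums of 17619 and 12679 against 23832 and 20631. Of 14 kidney epithelial markers 1 lay higher and 6 lower, with sums of 7736 and 8791 against 4666 and 5416. The part of these cell types in the differences of Rsad2, Bst2, Isg20, Ifi204 and the other interferon genes was not tested.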

How the data were processed

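Per the labels' protocols, total RNA of the 4 sorted samples was amplified isothermally and biotin-labelled. The authors deposited probe set intensity values on a linear scale, made with RMA per the submitters' processing notes. The RMA version and settings, and how values left the log2 scale, are not given in the sources used here. The method equalises array distributions, so a shift shared by most genes would be removed. Of 45101 probe sets, 34958 had 1 gene symbol in the platform annotation, 932 several and 9211 none. The 10 probe sets that name an interferon gene of the set's kind beside another gene were left out of the test. Symbols of all 62 members were found in RefSeq (GRCm38.p6).

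Log2 intensities were fitted with limma 3.58.1 in R 4.3.3 (lmFit, eBayes), with Benjamini-Hochberg adjustment over 18194 genes and no block or filter. Standard errors are the model's, and folds are taken from the log2 difference. For a group with neither array above the control level, the fold is a lower bound against that level, computed from mean log2 values. The script was tested on simulated data. The labels call the samples biological replicates without naming animals, so p-values measure only the spread between these samples, which may be technical, and 2 arrays per group limit the precision.

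Values are given for members with at least a 2-fold difference without overlap or an unadjusted p of at most 0.05, for the HIN-200 genes and for the IRF and STAT regulators, and for the 2 lowest-p genes of each other pathway list. Further genes were named after its values were seen. The members and gene lists were chosen with earlier results of these data known. Alternatives were the replicate number as a block, each array left out, a filter on dim genes, the mean of all probe sets, an offset of 16, quantile normalization, centring on the median, and an intensity trend in the prior. The arrays' scan batches are not known from the files.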

Additional observations from a re-analysis of the deposited data

Results flagged for a closer look

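A probe set that was left out of the comparison because it matches both Ifi202b and a near-identical locus carried a signal on the labelled Tfrc-null arrays, 53.2 and 81.6, while it stayed under the control level in wildtype cells, 4.89 and 7.56. It was at least 8.16-fold higher than the control level of the wildtype arrays.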

How the results depend on the processing

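With 2 arrays per group, no member passed limma's adjusted p of 0.05 in the fit reported (12 had an unadjusted p of at most 0.05) or under the 11 alternatives, so the differences given are sizes without a call. With the replicate number as a block, 0 members and 2 of 18194 genes passed, and 19 members had an unadjusted p of at most 0.05. Of all genes, 2691 had such a p with the block and 1459 in the fit reported. Same-numbered arrays deviated together from their group means (r = 0.51 across 18194 genes, which are not independent replicates), but the labels do not say that a number marks a shared source, so no pairing is claimed. The median difference of the members, 0.02 in the fit reported, was -0.012 when a gene's probe sets were averaged and 0.052 with each array centred on its median, and it lay between -0.12 and 0.18 when 1 array was left out. Members at least 2-fold higher without overlap numbered 1 with an offset of 16 and 3 to 5 with 1 array left out. Of all genes, 94 were with the offset, 251 to 474 with 1 array left out and 209 in the fit reported. The number of members lower was 4 to 7 under all settings except 9 without labelled Tfrc-null replicate 2. The number of all genes lower was 149 to 445 under the alternatives, 356 without that array and 275 in the fit reported. Of the genes at least 2-fold apart, Ifi204 was -0.61 without wildtype replicate 1 and -0.72 with the offset, Ifi209 was -0.83 when probe sets were averaged and -0.52 with the offset, and Ifi44l and Gbp2b were 0.70 and 0.52 with the offset, all less than 2-fold. Of 253 values of 23 named members under the alternatives, 240 kept their sign, and the other 13, in 8 members, changed it. The block, the intensity trend and the filter on dim genes leave a named member's difference as it is. So does averaging for a member with 1 probe set, so these values could not change sign. Irf3 was -0.22 when probe sets were averaged. With 1 array left out, Ifi207 ranged from -0.66 to 0.083, Ifi213 from -0.23 to 0.16, Irf1 from -0.73 to 0.24, Irf3 from -0.089 to 0.32, Irf5 from -0.14 to 0.21, Irf7 from -0.86 to 0.53, Irf9 from -0.39 to 0.022 and Stat2 from -0.16 to 0.76. The cause of these changes was not tested. Readings near the control level, as for the probe sets that stood for Ifi203 and Ifi213, limit what can be seen.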
